A study of Mus musculus with 2 samples.

Results

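The genes described here are 10 targets and components of the hypoxia-inducible factor (HIF) pathway, Bnip3, Bnip3l, Adm, Ndrg1, Stc1, Ankrd37, Egln1, Egln3, Vegfa and Hif1a, out of 16803 genes in the expression table of a neural stem cell line. They were found by gene symbol, and all 10 were in the table. They were selected on the very values reported below, because some were much lower after treatment while Vegfa was higher, so the difference between the libraries is given for them as a description. RNA came from NE4C, an established line of mouse neural stem cells that was cloned from embryonic brain of p53-deficient mice, a deficiency that both cultures share. One culture was grown normally (control) and the other was treated with HTL, homocysteine thiolactone, a reactive cyclic form of homocysteine that can attach to lysines of proteins. The labels give no dose or duration for HTL, and they name no change in oxygen. Each condition had 1 library, so no difference has a replicate check, and the 95% intervals below are exact Clopper-Pearson intervals that cover counting error only.

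HIF is a pair of proteins, an oxygen-controlled alpha subunit such as HIF-1alpha (gene Hif1a) and a stable partner, ARNT. When oxygen is present, the prolyl hydroxylases encoded by the Egln genes mark the alpha subunit, and the VHL ubiquitin ligase then has it degraded, so the mRNA of Hif1a does not measure the activity of the factor. When oxygen falls or the hydroxylases are blocked, HIF binds a short core sequence near its targets and raises genes for glycolysis, mitochondrial clearance and blood vessel growth, together with Egln genes that act back on it. In neural stem cells the pathway is known for its part in self-renewal and in the signals that bring vessels into the young brain.

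The core of the hypoxia response element is ACGTG or GCGTG, and the windows upstream of 5 of the genes are printed because they span the cases of several cores, few cores and none. RefSeq windows (assembly GRCm38.p6) were found for 7 of the 10 genes, and not for Bnip3l, Ndrg1 and Stc1. Each line holds the 250 bases before an annotated start, read 5′ to 3′ on the strand of the gene, and capitals mark ACGTG or GCGTG on either strand (CACGT and CACGC on the printed strand), with overlapping matches run together. The positions are chr7:138909507-138909756 (minus strand) for Bnip3, chr8:45999851-46000100 (minus) for Ankrd37, chr7:110627407-110627656 (plus) for Adm, chr8:124949255-124949504 (minus) for Egln1 and chr17:46032378-46032627 (minus) for the upstream of the starts of Vegfa.
Bnip3: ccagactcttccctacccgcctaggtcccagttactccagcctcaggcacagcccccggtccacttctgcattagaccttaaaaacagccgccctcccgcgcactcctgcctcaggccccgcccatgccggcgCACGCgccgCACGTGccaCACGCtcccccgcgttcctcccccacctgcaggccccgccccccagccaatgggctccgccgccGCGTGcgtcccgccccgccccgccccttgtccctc
Ankrd37: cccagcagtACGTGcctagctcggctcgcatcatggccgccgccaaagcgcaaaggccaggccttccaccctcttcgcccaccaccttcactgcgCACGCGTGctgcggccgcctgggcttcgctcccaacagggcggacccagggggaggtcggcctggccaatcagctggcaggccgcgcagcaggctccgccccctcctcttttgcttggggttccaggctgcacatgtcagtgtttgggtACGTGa
Adm: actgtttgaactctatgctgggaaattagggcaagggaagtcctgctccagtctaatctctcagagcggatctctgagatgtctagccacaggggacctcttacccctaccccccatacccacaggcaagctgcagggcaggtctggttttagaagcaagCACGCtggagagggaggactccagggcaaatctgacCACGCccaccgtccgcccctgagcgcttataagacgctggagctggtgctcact
Egln1: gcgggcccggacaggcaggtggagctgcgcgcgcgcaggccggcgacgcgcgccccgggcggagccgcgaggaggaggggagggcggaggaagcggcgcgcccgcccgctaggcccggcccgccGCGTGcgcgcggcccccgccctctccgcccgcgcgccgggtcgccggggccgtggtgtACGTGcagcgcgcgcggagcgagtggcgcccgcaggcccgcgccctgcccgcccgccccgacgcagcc
Vegfa: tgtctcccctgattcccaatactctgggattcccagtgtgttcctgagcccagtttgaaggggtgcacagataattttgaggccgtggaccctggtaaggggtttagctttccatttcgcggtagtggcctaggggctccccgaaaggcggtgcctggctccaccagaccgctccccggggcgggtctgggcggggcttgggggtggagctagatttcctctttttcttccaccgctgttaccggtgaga
The Bnip3 window held 4 separate matches, 3 of them within a short stretch, and the middle one of these was the palindrome CACGTG. The Ankrd37 window held 3 and the Adm and Egln1 windows 2 each, while the upstream Vegfa window held 0. A match describes the letters only and is not a bound site.

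Over all 32851 RefSeq windows of 300 bases (250 before and 50 after a start), 43.8% held at least 1 match, 17.3% at least 2, 6.55% at least 3 and 2.44% at least 4. Of the genes described here, 7 of 8 windows held a match, and 7 of 7 genes with a window had one, beside 67.4% of the tested genes that have a window. The letters ACGTG were in 6 of these 7 genes, counting any window of a gene, and Adm carried GCGTG cores only. Of all windows counted singly, 19.6% held ACGTG, which is not a share of genes, and a share by gene was not computed. Egln3 had 1 match and Hif1a 2. Vegfa had 2 matches upstream of its second annotated start and none at its first. Across the 10615 tested genes with a window, median log2 ratios were close to each other whatever the number of matches. The median log2 ratio of HTL treatment over control was -0.17 in 3461 genes with 0 matches, -0.11 in 3497 with 1, -0.13 in 2102 with 2 and -0.13 in 1555 with 3 or more. The shares past a log2 ratio of -1 in these classes were 13.6%, 11.2%, 11.0% and 10.1%.

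**Figure D1:**
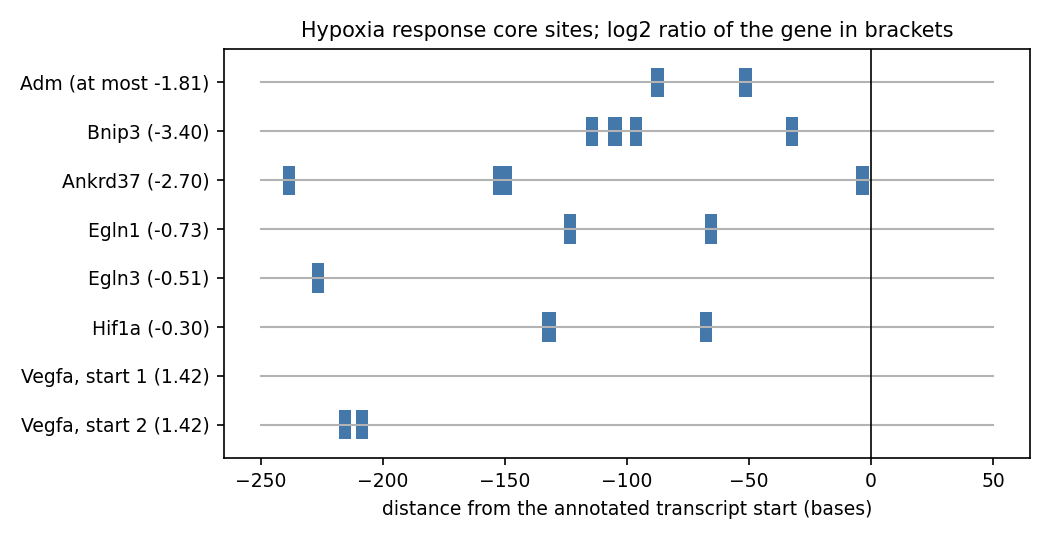
Matches to ACGTG or GCGTG on either strand (blue boxes) along 300-base RefSeq windows of the 7 genes that have one, by distance in bases from the annotated start (vertical line). The log2 ratio of HTL treatment over control stands in brackets, with Bnip3 (4 matches) at -3.40, Ankrd37 (3) at -2.70 and Egln3 (1) at -0.51. Egln1, Hif1a, Adm and the second start of Vegfa (2 each) are at -0.73, -0.30, -1.81 and 1.42. The value of Adm, labelled as at most, is set by the floor of 3 reads and leaves out the counting error of its control reads.

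The libraries held 10350665 (control) and 9102076 (HTL treatment) reads on genes, so the floor of 3 reads corresponds to 0.290 and 0.330 CPM (counts scaled to the library total). Of the neural stem cell markers, 10 of 10 were in the table and 7 had over 5 FPKM (fragments per kilobase of transcript and library size) in the control, Fabp7 being near 0 with 2 reads in each library. Their summed FPKM was 224.44 in the control and 163.17 after HTL treatment. Sox1, Sox2, Vim and Cdh2 had log2 ratios of -1.78, -1.46, -1.01 and -0.37, Hes1 and Nes -0.11 and -0.059, and Msi1, Pax6, Fabp7 and Prom1 0.033, 0.12, 0.15 and 0.51. Summed FPKM of the neuron markers was 21.66 and 28.52, most of it Tubb3 (16.34 and 24.79 FPKM), while Dcx, Snap25 and Map2 had log2 ratios of -1.40, -1.01 and -0.60 and Rbfox3 0.34. It was, for 2 listed astrocyte markers 18.23 and 18.14, for oligodendrocyte markers 3.93 and 4.32, and for the endothelial, macrophage and fibroblast markers 2.04 or less in each library. Aqp4, S100b, Olig2, Cdh5, Ptprc, Csf1r and Lum were not listed. The part of these shifts in the results below was not tested, and in bulk RNA fewer cells of a type and less RNA per cell cannot be told apart.

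Of the 10 genes, 9 were lower and 1 was higher in the HTL treatment library than in the control, after scaling to the library totals. A gene is called past the fold here when its log2 ratio is at least 1 in size, with 0.5 read added to each library, among genes whose reads summed over the libraries reach 10 (13442 genes, called tested below). By that measure Bnip3, Stc1, Ankrd37, Ndrg1 and Adm (5 of 10) were lower and Vegfa (1 of 10) was higher, and Egln1, Bnip3l, Egln3 and Hif1a were lower but short of the fold. Of all genes tested, 12.2% were past the fold lower and 4.72% higher. With a mean of at least 100 reads, 3 of 8 of these genes were past the fold lower and 1 higher, beside 7.26% lower and 2.6% higher of 8528 genes. Since the genes were picked on this difference, nothing is read from their share against the background. Their median log2 ratio was -1.27 with Adm at its bound (-1.30 with its fitted value), and the median of all genes tested was -0.14.

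**Figure D2:**
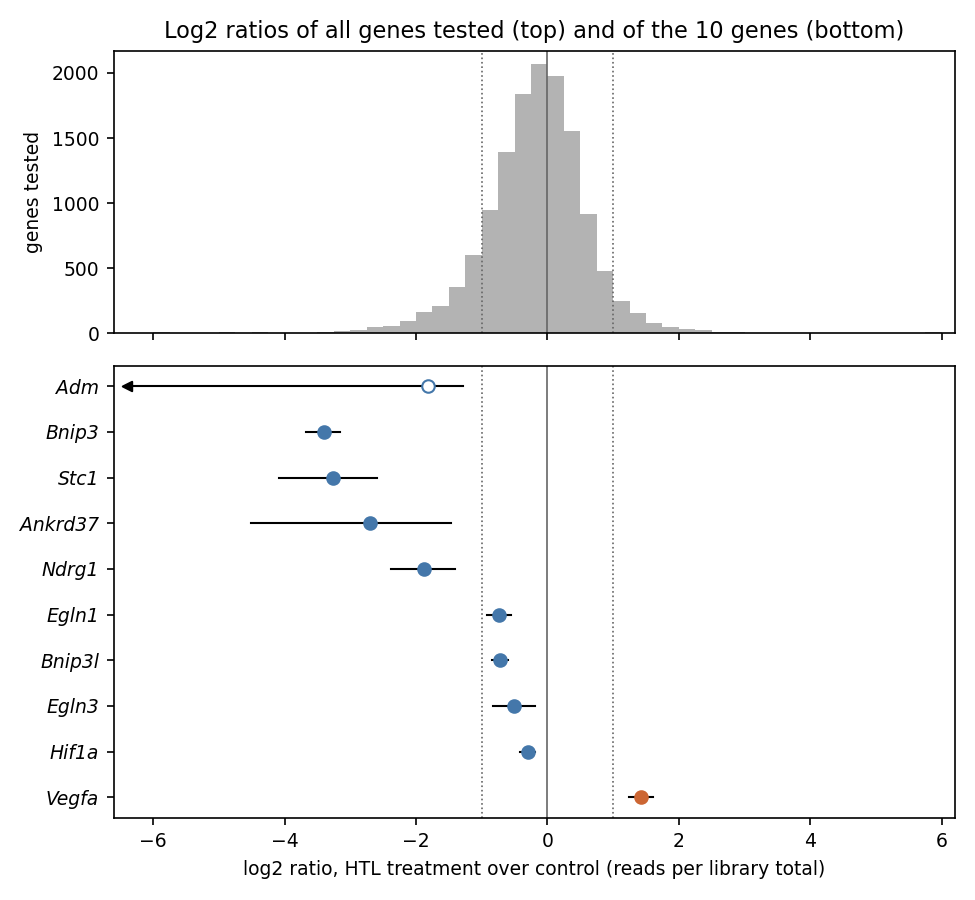
Top, number of genes by log2 ratio of HTL treatment over control for all 13442 genes tested, values beyond 6 being drawn at 6. Bottom, the log2 ratio of each of the 10 genes (points) with its exact 95% counting interval (lines), where dotted lines mark the fold cutoff and the open point of Adm, with 0 reads after treatment, is its bound of -1.81. The interval is below 0 for 9 genes and above 0 for Vegfa.

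Bnip3 and Bnip3l encode related proteins of the mitochondrial outer membrane that recruit the autophagy machinery, and so act as mitophagy receptors. Bnip3 (gene ID 12176, chr7:146082519-146101202, minus strand; gene spans here and below are from the annotation of NCBIM37, which is mm9) had 1638 reads in the control and 136 after HTL treatment, or 90.44 and 8.52 FPKM. This was a log2 ratio of -3.40 (95% interval -3.67 to -3.15), or 10.6-fold lower. In FPKM it fell from rank 782 to rank 5790 of 16803 genes. A log2 ratio as low or lower was found in 0.387% of the genes tested, but Bnip3 was picked on this value. Bnip3l (gene ID 12177, chr14:67604076-67627714, minus strand) had 1498 and 797 reads, or 44.44 and 26.83 FPKM, and its log2 ratio was -0.72 (-0.85 to -0.60), or 1.65-fold lower.

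The relation of the pair therefore turned over. Per length, Bnip3 was at 2.04 times the level of Bnip3l in the control, and Bnip3l was at 3.15 times the level of Bnip3 after treatment. The difference of their log2 ratios was -2.68 (-2.97 to -2.40), a value that no scaling of the libraries can alter. Bnip3 made up 41.1% of the summed FPKM of the 10 genes in the control and 7.95% after treatment. That sum was 219.81 in the control and 107.11 after treatment, and without Bnip3 it was 129.37 and 98.59.

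**Figure D3:**
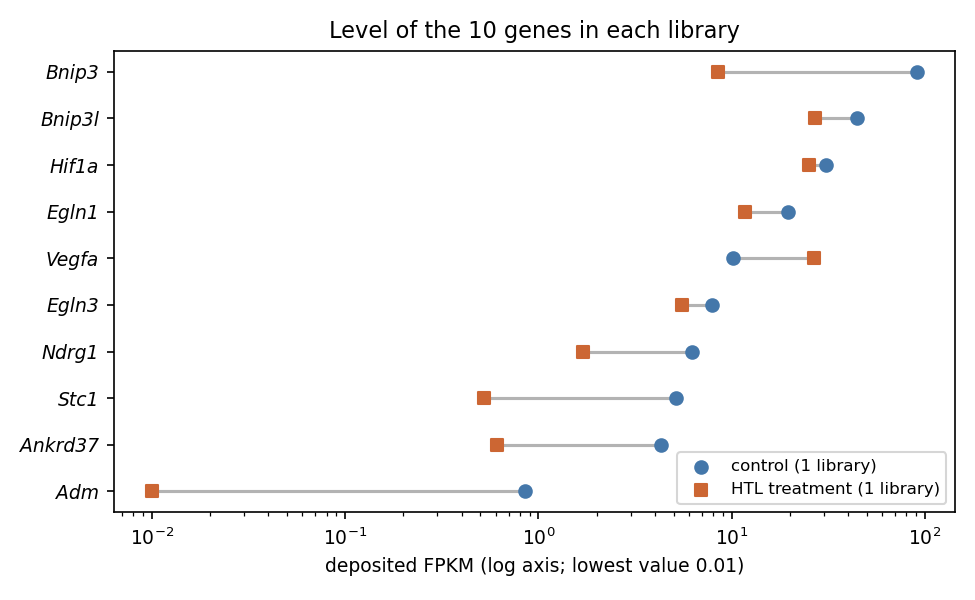
Deposited FPKM of each of the 10 genes (log axis) in the control library (blue circles) and the HTL treatment library (orange squares), in order of the control level, with 1 library per condition. Bnip3 is the highest of the 10 in the control at 90.44 FPKM and is at 8.52 after treatment, while Vegfa moves from 10.2 to 26.69, and Adm is drawn at 0.01, the lowest value in the table.

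Secreted factors showed both directions. Stc1 encodes stanniocalcin 1, a secreted glycoprotein with effects on calcium and phosphate transport (gene ID 20855, chr14:69647295-69659861, plus strand). It had 201 reads in the control and 18 after treatment, or 5.15 and 0.52 FPKM, and its log2 ratio was -3.26 (-4.08 to -2.60), 9.60-fold lower, or -2.02 as a log2 ratio of FPKM + 1. The log2 ratios of Stc1 and Bnip3 differed by less than their counting error, the difference being -0.11 (-0.86 to 0.72) for Bnip3 minus Stc1. Adm encodes adrenomedullin, a vasodilator peptide (gene ID 11535, chr7:117771175-117773331, plus strand), and it was scarce, with 12 reads in the control and 0 after treatment. Against the floor of 3 reads in the treated library it was at least 3.52-fold lower, a bound that leaves out the counting error of the 12 control reads, and its 95% interval on the log2 scale reached up to -1.29. Its FPKM was 0.85 in the control and listed at 0.01, the lowest value in the table, after treatment. As a log2 ratio of FPKM + 1, Adm was at -0.87, short of the fold. Vegfa encodes the main growth factor for blood vessels and also acts on neural progenitors (gene ID 22339, chr17:46153942-46169326, minus strand). It had 357 reads in the control and 841 after treatment, or 10.2 and 26.69 FPKM, a log2 ratio of 1.42 (1.24 to 1.60), 2.68-fold higher. It rose in rank from 5580 to 2675, which put it above Hif1a and all but 1 of the other 9 genes in FPKM.

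Ndrg1 encodes a cytoplasmic protein of the NDRG family that is known for strong induction by hypoxia and by differentiation (gene ID 17988, chr15:66760883-66801202, minus strand). Its reads were 189 in the control and 45 after treatment, or 6.25 and 1.69 FPKM, with a log2 ratio of -1.87 (-2.39 to -1.41), 3.67-fold lower. Its difference was smaller than that of Bnip3 by 1.52 on the log2 scale (0.95 to 2.07). Ankrd37 encodes a small ankyrin repeat protein known as a direct HIF-1 target (gene ID 654824, chr8:47082256-47085221, minus strand). It had 40 reads in the control and 5 after treatment, or 4.29 and 0.61 FPKM, and its log2 ratio was -2.70 with a wide interval (-4.51 to -1.47). It was -2.04 with 5 reads added and -1.72 with FPKM + 1. Exons of 3 of the 10 genes overlap genes on the opposite strand, and whether reads were counted by strand is not given in the sources used here. For Ankrd37 these are Lrp2bp, with 9 and 6 reads, and Ufsp2, with 497 and 313 reads (log2 ratio -0.48, interval -0.69 to -0.27). For Ndrg1 they are Gm17035 and Gm2895, and for Hif1a Gm15283, none of which the table lists.

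Egln1, Egln3 and Hif1a were lower but short of the fold. Egln1 encodes PHD2, the main hydroxylase of HIF-1alpha (gene ID 112405, chr8:127432496-127473154, minus strand), with 716 reads in the control and 379 after treatment, or 19.49 and 11.71 FPKM, and its log2 ratio was -0.73 (-0.92 to -0.55). Egln3 encodes PHD3, a hydroxylase that is itself strongly HIF-inducible (gene ID 112407, chr12:55279968-55304847, minus strand), and it had 220 and 136 reads, or 7.86 and 5.52 FPKM, with a log2 ratio of -0.51 (-0.83 to -0.19). The difference between the log2 ratios of Egln1 and Egln3 was within counting error at -0.22 (-0.59 to 0.15). Hif1a (gene ID 15251, chr12:75002362-75048517, plus strand) had 1526 and 1092 reads, or 30.84 and 25.01 FPKM, with a log2 ratio of -0.30 (-0.41 to -0.18), 1.23-fold lower. This was the smallest difference of the 10, and with TMM scaling it was -0.17. Vegfa and Hif1a differed in log2 ratio by 1.72 (1.50 to 1.93), and Bnip3 and Hif1a by -3.11 (-3.39 to -2.83).

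In order of FPKM the control library read Bnip3, Bnip3l, Hif1a, Egln1, Vegfa, Egln3, Ndrg1, Stc1, Ankrd37 and Adm. After treatment the order was Bnip3l, Vegfa, Hif1a, Egln1, Bnip3, Egln3, Ndrg1, Ankrd37, Stc1 and Adm. With 1 library each, no spread over samples is known for neighbours in either order. The log2 ratio of FPKM and that of reads differed by at most 0.11 in the 9 genes with reads in both libraries. Log2 ratios also depended on transcript length in these libraries, since the median was 0.14 in the shortest of 10 equal length classes and -0.38 in the longest. The class medians were 0.14 for Ankrd37, -0.020 for Adm, -0.049 for Bnip3, -0.13 for Egln3, and -0.17 for Bnip3l, Ndrg1, Stc1, Egln1 and Vegfa. The class of Hif1a had a median of -0.28, close to the value of -0.30 for Hif1a itself.

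**Figure D4:**
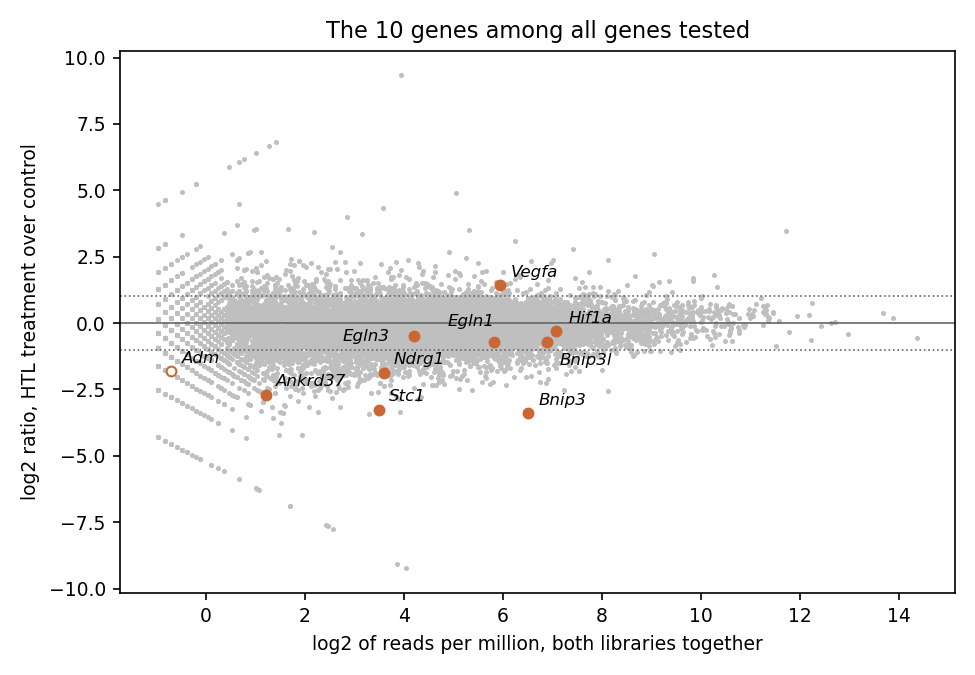
Log2 ratio of HTL treatment over control (vertical axis) against log2 reads per library size (scaled as CPM) over both libraries (horizontal axis) for all 13442 genes tested (grey) and the 10 genes (orange), with dotted lines at the fold cutoff and Adm as an open circle at its bound. Among genes of similar level, Bnip3 at -3.40 lies near the lower edge of the cloud, Vegfa at 1.42 above the upper cutoff, and Egln1, Bnip3l, Egln3 and Hif1a between the cutoffs.

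The paralogs of these genes, listed together with the namesakes Bnip1, Bnip2 and Ankrd1, lay on both sides of 0. Of the 8 genes listed, 7 had enough reads, and their median log2 ratio was -0.40. Past the fold, 1 was lower and 1 higher (14.3% each, beside 12.2% and 4.72% of all genes tested). Stc2, the other stanniocalcin, had 247 reads in the control and 492 after treatment, a log2 ratio of 1.18 (0.96 to 1.41). The difference of the log2 ratios, Stc1 minus Stc2, was -4.47 (-5.29 to -3.73), so that the relation of the stanniocalcins shifted by 22.2-fold. The level of Stc2 per length, 13.35 and 30.18 FPKM, was above that of Stc1 in both libraries. Vegfa and Stc2 differed in log2 ratio by 0.24 (-0.049 to 0.53), which is within counting error.

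In the NDRG family Ndrg2 had 207 and 235 reads, Ndrg3 347 and 196, and Ndrg4 73 and 46, with log2 ratios of 0.37, -0.64 and -0.48. The log2 ratio of Ndrg1 was below each of them, by differences of -2.25 (-2.83 to -1.69), -1.24 (-1.81 to -0.70) and -1.40 (-2.16 to -0.65). Bnip1 and Bnip2, which share a name more than a function with Bnip3, had log2 ratios of 0.17 and -0.40. Egln2, which encodes PHD1 and is not known as a HIF-inducible gene, had 360 reads in the control and 119 after treatment, a log2 ratio of -1.41 (-1.72 to -1.11). It was lower than Egln1 by a difference of -0.68 (-1.04 to -0.32) and than Egln3 by -0.90 (-1.35 to -0.46), so the Egln gene with the largest difference was the one outside the set. Ankrd1 had 2 and 3 reads, too few to be tested.

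Of 15 genes for HIF subunits and oxygen sensing, 2 were past the fold lower, 1 was higher and 12 were short of it, shares of 13.3% and 6.67% beside 12.2% and 4.72% of all genes tested. Their median log2 ratio was -0.20. Lower were Egln2 and Epas1, the gene of HIF-2alpha, with 46 and 16 reads (log2 ratio -1.31, interval -2.26 to -0.49). Higher was Siah2, a ubiquitin ligase that degrades the Egln hydroxylases, with 32 reads in the control and 137 after treatment and a log2 ratio of 2.26, interval 1.72 to 2.89. The partner subunits Arnt (1306 and 805 reads) and Arnt2 (344 and 191) had log2 ratios of -0.51 and -0.66. Hif3a was at -0.78 and Hif1an, which encodes the asparagine hydroxylase FIH, at -0.28. Genes of the VHL ubiquitin ligase lay on both sides, with Vhl at 0.42, Tceb2 at 0.30 and Rbx1 at 0.17, and Tceb1 at -0.20 and Cul2 at -0.27. Arntl, Os9 and Siah1a, at 0.015, -0.13 and 0.26, had intervals that include 0.

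Of 47 known HIF targets beyond the 10 genes, 43 had enough reads, of which 6 (14.0%) were past the fold lower and 0 higher, beside 12.2% lower and 4.72% higher of all genes tested. Their median log2 ratio was -0.42. With FPKM + 1 only 1 gene was past the fold, and it was lower. With TMM, median of ratios or upper quartile scaling the counts were 4 lower and 1 higher. Pdk1, which encodes a kinase that inhibits pyruvate dehydrogenase, was the lowest with a mean of at least 50 reads. It had 885 reads in the control and 159 after treatment (log2 ratio -2.29, interval -2.54 to -2.05). Its log2 ratio was still above that of Bnip3 by 1.11 (0.75 to 1.48). The others with a mean of at least 50 reads were Rora (137 and 49 reads, log2 ratio -1.29), Bhlhe40 (187 and 70, -1.23), Ankzf1 (308 and 128, -1.08) and Kdm4b, a histone demethylase (493 and 207, -1.06). Ankzf1 and Kdm4b were short of the fold under each of those scalings. Edn1, named after its values were seen, went from 19 reads to 1, at a log2 ratio of -3.55 (-9.44 to -1.41). The list's members with the highest FPKM in the control, Mif (718.99) and Slc16a3 (219.53), had log2 ratios of 0.48 and -0.44.

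Of 16 glycolytic HIF targets, Hk2 and Eno2 were past the fold lower (12.5%, beside 12.2% of all genes tested), 0 were higher and 14 were short of it. The median log2 ratio was -0.03, which turned positive with the other scalings. With TMM or median of ratios scaling 1 gene, Aldoc (log2 ratio 0.89 here), was past the fold higher. Hk2, the inducible hexokinase, was at 2720 and 1065 reads (log2 ratio -1.17, interval -1.27 to -1.06), and Eno2, the neuronal enolase, had 109 and 33 reads and -1.53 (-2.15 to -0.96). Gapdh, the most abundant at 8581.56 FPKM in the control, had a log2 ratio of 0.37, and Aldoa, at 785.76 FPKM, had -0.27. The glucose transporters differed in sign, with Slc2a1 at -0.81 and Slc2a3 at 0.78, both short of the fold.

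Among 13 other genes of mitophagy, the process Bnip3 and Bnip3l serve, 1 was past the fold lower and 2 higher, or 7.69% and 15.4% beside 12.2% and 4.72% of all genes tested. The median log2 ratio was 0.44. Optn, an autophagy receptor, was lower with 1237 and 438 reads (log2 ratio -1.31). Pink1, the kinase that marks damaged mitochondria, was higher with 74 and 163 reads (1.32), as was Map1lc3a, one of the autophagosome proteins that mitophagy receptors bind, with 205 and 362 reads (1.00). The value of Map1lc3a lay at the cutoff, and with 5 reads added or with FPKM + 1 only 1 gene of the list was past it higher. The other proteins of that kind, from Map1lc3b, Gabarap, Gabarapl1 and Gabarapl2, had log2 ratios of 0.74, 0.62, 0.68 and 0.47. The receptor genes Fundc1, Bcl2l13, Fkbp8 and Phb2 were at -0.70, 0.31, 0.17 and -0.01, and Park2 and Calcoco2 at 0.41 and 0.44.

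Of the ligands and receptors that go with Vegfa and Adm, 10 of the 13 in the table had enough reads, and 2 were past the fold lower and 1 higher, again beside 12.2% and 4.72% of all genes tested. The median log2 ratio was 0.12. These calls depended on the settings, since 0 genes were past the fold with FPKM + 1 and 6 of 13 without the read filter. Vegfb, the most abundant ligand, had 844 and 827 reads, and the log2 ratio of Vegfa exceeded that of Vegfb by 1.27 (1.04 to 1.50). Vegfc had 26 and 27 reads, and Figf (VEGF-D) had 16 and 3, a log2 ratio of -2.07. The coreceptor Nrp2 was lower at 101 and 22 reads (log2 ratio -1.99, interval -2.75 to -1.34), while the receptors Flt1 (69 and 64 reads), Flt4 (111 and 76) and Kdr (8 and 8) had intervals that include 0. Adm2, a peptide related to Adm, had 2 reads in the control and 10 after treatment, a log2 ratio of 2.23 (0.28 to 5.74). The receptor subunits Ramp2 and Ramp3 had 17 and 14 and 157 and 156 reads, and Calcrl, Ackr3 and Nrp1 had too few reads to be tested.

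Genes known to respond both to hypoxia and to stress of the endoplasmic reticulum (ER) had log2 ratios above 0. Vegfa is also known to be raised by both, but a part of either stress in its value was not tested. Of 7 such genes, 5 were past the fold higher and 0 lower, while 4.72% of all genes tested were past it higher and 12.2% lower, and their median log2 ratio was 1.18. Trib3, a pseudokinase of the integrated stress response, had 173 reads in the control and 1297 after treatment, a log2 ratio of 3.09 (2.86 to 3.33). Hyou1, an ER chaperone, stood at 4857 and 12830 reads and a ratio of 1.59 (1.54 to 1.63) on the log2 scale, and Hmox1, heme oxygenase 1, stood at 903 and 1721 reads and 1.12 (0.999 to 1.23). Stc2 and Adm2, given above, were the others past the fold. Ddit4, an inhibitor of mTORC1 signalling, and Ero1l, an ER oxidase, had log2 ratios of 0.55 (0.32 to 0.79) and 0.30 (0.14 to 0.45), short of the fold. Stc2, Adm2, Ddit4, Ero1l and Hmox1 are also in other lists, and this list was written with earlier results of these data known, so its direction is no independent evidence.

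**Figure D5:**
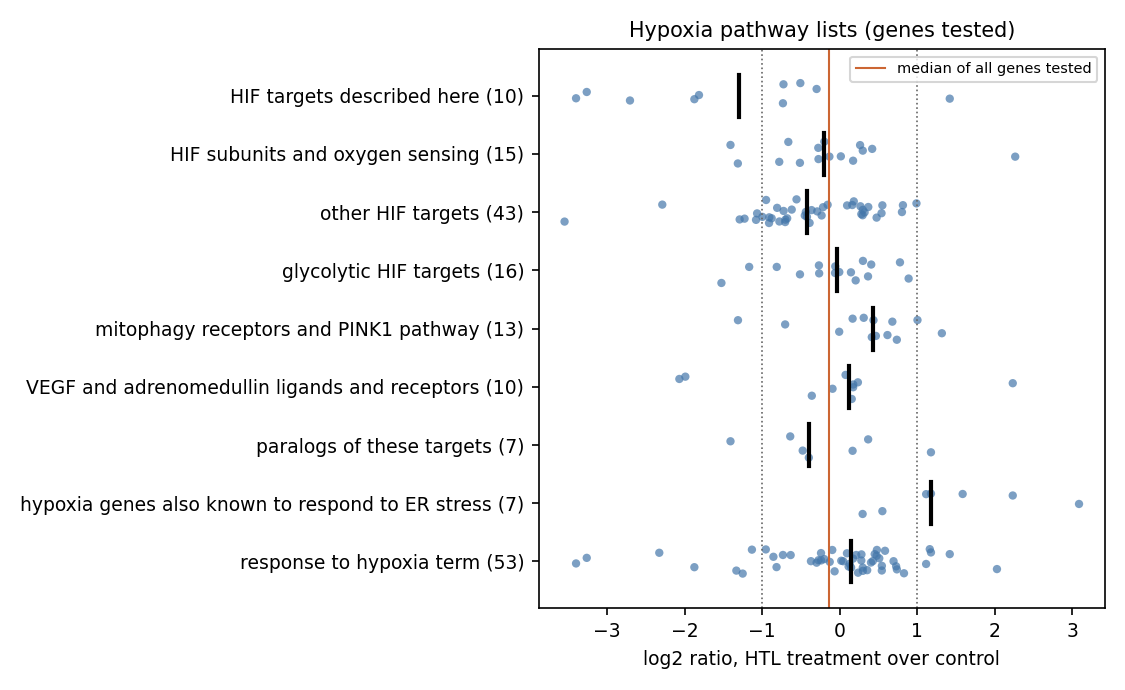
Log2 ratio of HTL treatment over control for each tested gene (points) of the 10 genes and of the other lists, with the number tested in brackets, the list median (black bars), the median of all genes tested (orange line, -0.14) and the fold cutoff (dotted lines). Points are spread vertically only to separate them, and Adm is drawn at its bound. The bottom list is the table's own annotation of the response to hypoxia. The list medians run from -1.30 for the 10 genes, with the fitted value of Adm, to 1.18 for genes that also respond to ER stress.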

How the data were processed

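RNA of 1 control and 1 HTL-treated NE4C culture was made into libraries with a TruSeq kit and sequenced on BGISEQ-500. Groups were taken from sample titles. Per the study's methods, the authors estimated reads per gene with RSEM. The build in the submitters' processing notes is mm9, and mapper, versions, annotation and use of strand are not given in the sources used here. The deposited table holds estimated counts, not normalized, of which 21.8% (control) and 20.2% (HTL treatment) were fractional, because RSEM splits reads between similar genes, and FPKM, which the authors scaled to transcript length and library size. Its log2 ratio, p-value and FDR columns were not used.

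Counts were rounded, leaving 622 (control) and 1217 (HTL treatment) genes at 0. Genes whose reads summed to 10 or more over the libraries were kept (13442, with 3361 left out). Log2 ratios were of reads per library total with 0.5 read added. Intervals were exact Clopper-Pearson intervals of the share of each gene's reads that fell in the treated library. They and the floors cover counting error only, as each condition had 1 library. No molecular identifiers mark duplicate reads, so the counting error may be larger than the intervals show. The fold cutoff is that of the study's methods. Quasi-likelihood (edgeR 4.0.16) and DESeq2 (1.42.0) tests could not be fitted without replicates, so both gave scaling factors only. The alternatives were scaling by TMM, by median of ratios or by upper quartile, genes from 1 read up, genes averaging 100 reads or more, 5 reads added, FPKM with 1 added, a log2 cutoff of 2, and an exact binomial test of the reads at an adjusted p of at most 0.001, which compares the libraries and not the conditions. Summing genes with the same best protein match altered no member, as 0 of 10 share theirs.

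The members and lists were chosen with earlier results of these data known. Named are all members, the measured genes of lists of up to 15, and of longer lists the genes past the fold with a mean of at least 50 reads and those with the 2 highest control FPKM. Exceptions are said in place, except Aldoc, Slc2a1 and Slc2a3, named after their values were seen. The most abundant genes of the hypoxia annotation are not reported here. Hypoxia cores were searched on both strands. Python 3.11.15 and R 4.3.3 were used, and scripts were tested on simulated data.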

Additional observations from a re-analysis of the deposited data

How the results depend on the processing

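Filters and cutoffs leave the log2 ratios of the 10 genes as they are and alter only which are counted. Scaling by TMM, by median of ratios or by upper quartile raised every log2 ratio by 0.13, 0.14 and 0.09, and the genes past the fold stayed 5 lower and 1 higher, while among all genes the 1645 lower and 635 higher became 1269 and 861, 1257 and 875, and 1368 and 787. With FPKM + 1, Adm (-0.87) fell short of the fold, leaving 4 lower and 1 higher, and Stc1 and Ankrd37 were at -2.02 and -1.72. With the adjusted p required as well, Adm was not called, which again left 4 lower and 1 higher. At a log2 cutoff of 2 there were 4 lower and 0 higher, without Ndrg1 and Vegfa.

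Counts of all genes past the fold (2280) became 4541 without a filter, 841 with a mean of at least 100 reads, 852 with FPKM + 1, 415 at a log2 cutoff of 2 and 1450 with the adjusted p. Without a filter, the VEGF and adrenomedullin list (3) went to 6 and the annotated response to hypoxia (12) to 21. With a mean of at least 100 reads, the subunit list (3) went to 1, glycolysis (2) to 1 and the VEGF list to 0. With FPKM + 1, other HIF targets (6) went to 1 and the VEGF list to 0, and with the adjusted p the latter went to 1 and the ER stress list (5) to 4. At a log2 cutoff of 2, the subunit list went to 1, other HIF targets to 2, the ER stress list to 2 and the hypoxia annotation to 4. Glycolysis, mitophagy (3) and the list of paralogs and namesakes (2) went to 0 at that cutoff. The motif share was 19.6% for ACGTG alone against 43.8%. Beyond fewer or more genes tested, the cause was not tested.

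No paired analysis was possible because control and treatment had 1 library each, so none was left out. At 9102076 to 10350665 reads, values of genes with few reads, such as Adm, Ankrd37, Edn1, Figf, Kdr and Adm2, have wide intervals.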

Other observations

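The table's own annotation names 68 genes for the response to hypoxia, a list taken up after the data had been seen. Of these, 6 are among the 10 genes (Bnip3, Ndrg1, Stc1, Egln1, Vegfa and Hif1a). Without them, 47 had enough reads, and 4 were past the fold lower and 4 higher (8.51% each, beside 12.2% and 4.72% of all genes tested), with a median log2 ratio of 0.21. Lower were Tgfb3, a growth factor named after its values were seen (82 reads in the control and 14 after treatment, log2 ratio -2.33), Akt1, a kinase of growth factor signalling (353 and 123, -1.33), E2f1, a cell cycle transcription factor (293 and 108, -1.25), and Mdm4, an inhibitor of p53 (935 and 375, -1.13). Higher were Icam1, an adhesion molecule (23 and 84, 2.03), Lmna, which encodes lamin A and C (50 and 99, 1.16), Stc2 and Hmox1.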
